A study of Rattus norvegicus with 8 samples.

Results

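The mitochondrial genome of the rat is represented by 37 of the 32623 rows of the deposited count tables, all rows whose chromosome is MT on the build Rnor_6.0. Of these, 13 are protein-coding genes with symbols in the authors' deposited table, and 24 carry an Ensembl identifier alone. The 24 unnamed rows are 22 rows of tRNA size, 60 to 75 bases long, and 2 longer rows of 958 and 1571 bases, which lie where mammalian mitochondrial genomes carry the small (12S) and large (16S) ribosomal RNA and are called the 12S row and the 16S row by that position. In all, 21 rows had at least 10 counts over the 8 libraries and are described: the 13 protein-coding genes, the 2 rRNA-sized rows and 6 of tRNA size. Another 8 tRNA-sized rows had 1 to 9 counts and 8 had none.

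The libraries came from hippocampal cultures of wild-type SD rats on day 18 in vitro, sequenced as polyadenylated RNA. A total of 4 were made after exposure to an NMDA receptor positive allosteric modulator (PAM), which enhances the response of this glutamate-gated channel, and 4 after vehicle. The sources used here do not give the compound, its dose, the duration, the number of animals or whether replicates are separate cultures, so the p-values measure the spread between these libraries, which may be technical. The cultures are mixed, and neuronal markers were present: all 11 matched of 12 had a mean above 1 CPM (CPM is counts scaled to a common library size).

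The mitochondrial genome encodes core subunits of the respiratory chain, with the ribosomal and transfer RNAs that translate them; all other subunits come from the nucleus. Its strands are each transcribed into long precursors that are cut mostly at the tRNAs, so that neighbouring genes start out at equal amounts and differ afterwards by processing, tailing and decay. Neurons depend on this system because ion pumping after synaptic activity draws heavily on oxidative phosphorylation.

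Libraries held 2960406 to 4389430 counts, of which 399909 to 519463 were mitochondrial. The limit that a count of 0 allows (3 counts of the total, counting error only) was 0.683 to 1.01 CPM, depending on the library. Relative to the mean of all libraries, log2 levels were lower in longer genes in PAM 3 (slope -0.0879 per doubling of gene length) and PAM 4 (-0.135), against slopes of 0.00579 to 0.0683 in the other 6 libraries. Cell markers also differed between the groups, by edgeR (adjusted p under 0.05), which called 9.00% of all tested genes higher and 9.89% lower. Summed neuronal marker levels were 5379 to 6355 CPM in vehicle and 4007 to 4701 CPM in PAM libraries, with 6 of 11 genes lower. Astrocyte markers summed to 6343 to 6652 and 9225 to 11255 CPM (5 of 10 higher), oligodendrocyte markers to 957 to 1069 and 1349 to 1747 CPM (5 higher and 1 lower of 10), and ependymal markers to 46.6 to 85.1 and 177 to 281 CPM (8 of 9 higher). Microglial markers summed to 17.3 to 52.3 and 12.6 to 20.5 CPM (0 of 2 tested changed) and endothelial and mural markers to 12.1 to 26.2 and 23.3 to 31.6 CPM (1 of 2 tested higher). No matched marker was at 0 in all libraries. The part of cell composition and of the length trend in the mitochondrial values was not tested beyond the alternatives given, and in such bulk samples fewer cells of a type and less RNA per cell cannot be told apart.

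Mitochondrial messenger RNAs were the most abundant transcripts of these cultures. COX1, the catalytic core of cytochrome c oxidase (complex IV), ranked 1 of all genes by mean CPM. COX3, CYTB, ATP6, COX2, ND2 and ND1 held ranks 2 to 7, and the 16S row rank 10, so that 8 of the 10 most abundant rows were mitochondrial. COX1 (MT 5323 to 6867, plus strand) stood at 33126, 37959, 35816 and 39840 CPM in the vehicle libraries (replicates 1 to 4 in this order, as for all values by library) and at 31622, 28597, 31985 and 36404 CPM in the PAM libraries. In both groups the replicate numbered 4 was the highest, and the groups overlapped.

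Per length, the 13 messenger RNAs differed in level (levels in CPM per kilobase; mean ± SD over all 8 libraries, both groups pooled for description). The highest were complex IV and ATP synthase core subunits. COX1 was at 22277 ± 2411 and ATP6, the proton channel subunit of ATP synthase (complex V), at 20600 ± 1814. COX3 was at 19403 ± 1648 and COX2, which receives electrons from cytochrome c, at 17362 ± 2158. COX1, ATP6, COX3 and COX2 overlapped between neighbours in this order, although COX3 exceeded COX2 within each of the 8 libraries, and COX1 exceeded ATP6 in 5 of 8. CYTB, the cytochrome b of complex III, followed at 12739 ± 1430, then ND2 at 10128 ± 1195 and ND1 at 8500 ± 820, both membrane subunits of complex I. COX2 exceeded CYTB, CYTB exceeded ND2, and ND2 exceeded ND1, in 8 of 8 libraries, although the ranges of these neighbours overlapped.

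The remaining complex I genes were lower. ND6 was at 4680 ± 589 and ND3 at 4356 ± 1218, which did not differ beyond their spread. ND5, one of the large proton-pumping subunits, was at 1937 ± 362, ND4L at 1172 ± 169 and ND4, another large proton-pumping subunit, at 298 ± 34.4. ATP8, the small ATP synthase subunit, was at 782 ± 187, below ND4L in 8 of 8 libraries although their ranges overlapped. ND4 was lowest in every library, and its range (275 to 372) stayed clear of that of ATP8 (426 to 1034).

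Genes read from the same precursor thus had very different counts per length. Among the 12 protein-coding genes on the plus strand the highest exceeded the lowest 67.5-fold to 85.2-fold within a library, at 75.8 ± 6.2 in vehicle and 75.4 ± 7.59 in PAM libraries (SD, n = 4 each). ATP8 and ATP6 overlap by 43 bases and are known to share a messenger RNA, yet ATP6 exceeded ATP8 per kilobase by 24.1 ± 4.31-fold in vehicle and 33.2 ± 16.2-fold in PAM libraries. ND4L and ND4 overlap by 7 bases and share a messenger RNA too, and ND4L exceeded ND4 by 3.92 ± 0.13-fold and 3.94 ± 0.54-fold. The sources used here do not say how reads in overlaps, or reads that match copies of mitochondrial sequence in the nuclear genome, were counted, so the levels of ATP8, ND4L and ND4 are uncertain as measures of RNA amount.

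**Figure D1:**
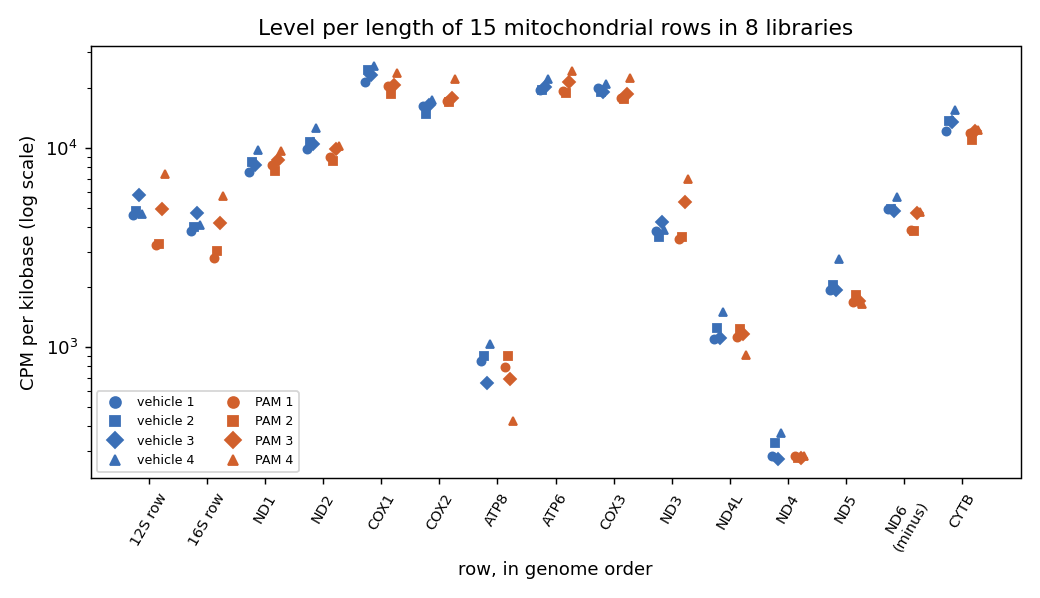
Level of the 13 protein-coding genes and the 2 rRNA-sized rows in genome order, as CPM per kilobase on a log axis; each point is a library, blue for vehicle and orange for PAM. ND4 lies lowest, at 275 to 372 in all 8 libraries, and COX1, COX2, ATP6 and COX3 highest; ND6 is the protein-coding gene on the minus strand.

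ND6 is the only protein-coding gene of the minus strand (MT 13543 to 14061). Its levels were 2543, 2559, 2505 and 2923 CPM under vehicle and 2008, 1987, 2429 and 2480 CPM under PAM, with every PAM library below every vehicle library. Per kilobase CYTB, its plus-strand neighbour, exceeded it 2.7 ± 0.15-fold in vehicle and 2.77 ± 0.24-fold in PAM libraries. Whether the counting used strand is not given, so reads from ND6 and from plus-strand RNA across it cannot be told apart; it shares 23 bases with ND5.

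In these libraries of polyadenylated RNA the rRNA-sized rows held 8.38% of mitochondrial counts, the protein-coding genes 91.6% and the tRNA-sized rows 0.0602%. The 12S row (MT 68 to 1025) had 4381, 4613, 5522 and 4457 CPM under vehicle, against 3100, 3151, 4705 and 7065 CPM under PAM. The 16S row (MT 1094 to 2664) had 6010, 6307, 7398 and 6432 CPM, against 4372, 4781, 6548 and 8952 CPM. For each row PAM 1 and PAM 2 lay below every vehicle library, PAM 3 within the vehicle range and PAM 4 above it. Per kilobase the 12S row exceeded the 16S row 1.19 ± 0.04-fold in vehicle and 1.18 ± 0.09-fold in PAM libraries, so the rows moved together across libraries.

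Almost no counts fell on tRNA-sized rows. The 8 on the minus strand held 2082 counts over the 8 libraries and the 14 on the plus strand 99. A single minus-strand row at MT 15348 to 15415 held 1656 of them, with 165, 212, 212 and 159 counts under vehicle and 208, 228, 295 and 177 counts under PAM. Next were the minus-strand rows at MT 5081 to 5152 (276 counts) and MT 5185 to 5252 (126 counts). Whether the counting used strand is not given, so in these minus-strand rows RNA of either strand cannot be told apart. The plus-strand rows at MT 9800, 7693 and 2665 had 57, 18 and 11 counts in total and did not pass the low-count filter of the main fit. The row at MT 9800 had 1, 5, 1 and 4 counts under vehicle and 12, 7, 5 and 22 counts under PAM. Its CPM overlapped between the groups. The groups overlapped for each of the 3 tested rows, and none of them passed the test described next.

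Mitochondrial RNA as a whole took a similar share of the libraries in both groups. Mitochondrial counts made up 12.5%, 12.9%, 12.9% and 14.1% of all counts under vehicle, and 12%, 11.8%, 12.2% and 13.5% under PAM. The mean was 13.1 ± 0.69% in vehicle and 12.4 ± 0.76% in PAM libraries (SD, n = 4), a difference of -0.69 percentage points that was within the spread of the libraries (exact permutation test over libraries, two-sided, p = 0.257; the smallest p that 4 against 4 allows is 0.0286). PAM 1 to 3 lay below every vehicle library and PAM 4 above all but vehicle 4. The difference was -0.36 points without vehicle 4, -1.07 without PAM 4 and -1.16 without PAM 3 and PAM 4. With each gene's counts divided by its length, the 13 protein-coding genes held 19.7 ± 1.05% of all counts per kilobase in vehicle and 18.3 ± 0.53% in PAM libraries, and here the groups did not overlap (exact permutation p = 0.0286, two-sided, unadjusted). This measure gives short genes more weight, and short genes were relatively higher in PAM 3 and PAM 4. By plain counts PAM 4 held 12% on the protein-coding genes, above all vehicle libraries but vehicle 4. Per kilobase it held 18.3%, below them all. PAM 1, PAM 2 and PAM 3 held 18.6%, 18.8% and 17.6% per kilobase, against 19% in the lowest vehicle library. By plain counts they held 11.2%, 11% and 11.1%, against 11.4% in the lowest vehicle library. The slopes with gene length were 0.00579 in PAM 1 and 0.0683 in PAM 2. The part of the length trend in this separation was not tested.

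**Figure D2:**
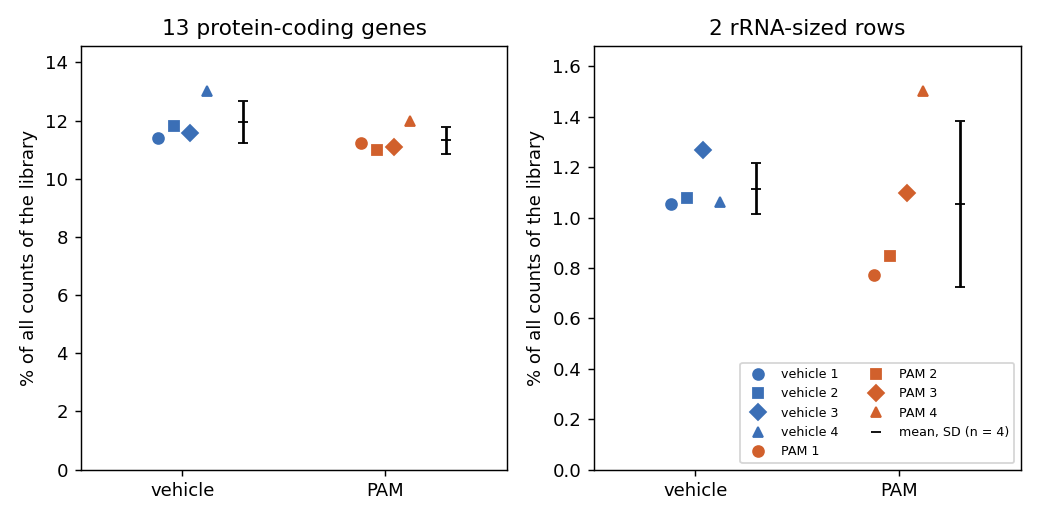
Percent of each library's counts on the 13 protein-coding mitochondrial genes (left) and on the 2 rRNA-sized rows (right); coloured points are libraries, black bars the mean and SD of 4. The protein-coding share overlaps between groups, and the rRNA-sized rows run from 0.773% in PAM 1 to 1.5% in PAM 4.

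The comparison of PAM with vehicle asks which mitochondrial transcripts differed after potentiation of the NMDA receptor. The changes were small: the median log2 fold change of the 13 protein-coding genes was -0.17, against 0.02 over all tested genes, and their fold changes ran from -0.34 (ND5) to 0.32 (ND3). A single row, ND5, fell, and none rose. Of the 18 mitochondrial rows that passed the filter on low counts, 1 (5.56%) passed edgeR's quasi-likelihood test at a Benjamini-Hochberg adjusted p under 0.05, against 18.9% of all 11740 tested genes. DESeq2 and limma-voom also gave 1 call each, and 3 rows had an unadjusted p under 0.05 by edgeR (31.9% of all genes). The groups did not overlap for 2 of the 18 rows, ND5 and ND6, against 22.3% of all tested genes (10.3% higher and 12% lower); both rows were lower.

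ND5 (ENSRNOG00000029971; MT 11736 to 13565, plus strand) had 3535, 3744, 3523 and 5054 CPM under vehicle and 3064, 3322, 3114 and 3006 CPM under PAM. Every PAM library was below every vehicle library, vehicle 4 stood well above the other vehicle libraries, and the PAM libraries were close together. ND5 fell by 0.34 ± 0.11 (SE) on the log2 scale, from 3964 ± 734 to 3127 ± 138 CPM (edgeR, Benjamini-Hochberg adjusted p = 0.0426). The call was marginal: it ended without vehicle 2 or 4 or PAM 1, 3 or 4 (adjusted p 0.0266 to 0.219 over the 8 fits without 1 library; -0.21 without vehicle 4). It passed in 10 of 21 alternatives, with a negative log2 fold change in each of them.

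No other complex I gene passed edgeR's test after Benjamini-Hochberg adjustment. ND6 had a log2 fold change of -0.24 ± 0.10 (adjusted p = 0.117) and ND2 of -0.21 ± 0.10 (adjusted p = 0.16). ND2 had 10194, 11139, 10809 and 12993 CPM in vehicle and 9364, 8888, 10204 and 10590 CPM in PAM libraries, with an overlap of PAM 3 and PAM 4 with vehicle 1. ND1 was at 8114 ± 893 and 8121 ± 796 CPM, a log2 fold change of 0.00 ± 0.10. ND4, at -0.17 ± 0.11, and ND4L, at -0.16 ± 0.12, overlapped between groups.

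ND3, a small complex I subunit gene of 348 bases, split the PAM group. It had 1329, 1235, 1474 and 1352 CPM under vehicle, and 1207, 1243, 1863 and 2425 CPM under PAM. PAM 3 and PAM 4 lay above every vehicle library, PAM 1 below them all and PAM 2 within their range. The log2 fold change was 0.32 ± 0.18 (edgeR, Benjamini-Hochberg adjusted p = 0.23), 0.09 without PAM 4, -0.12 without PAM 3 and PAM 4, and 0.13 with the length trend removed.

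For complexes III, IV and V the groups overlapped throughout. CYTB had 13813, 15556, 15451 and 17750 CPM in vehicle and 13579, 12458, 13824 and 14052 CPM in PAM libraries, a log2 fold change of -0.21 ± 0.10 (edgeR, Benjamini-Hochberg adjusted p = 0.134). COX1 stood at -0.19 ± 0.10, COX3 at -0.05 ± 0.10 and COX2 at 0.20 ± 0.10 on the same scale (adjusted p 0.194, 0.757 and 0.2 by edgeR). COX2 was at 0.10 without PAM 4 and at 0.01 with the length trend removed, and COX3 at -0.14 and -0.23. COX2 (MT 7006 to 7689) had 11026, 10134, 11236 and 11872 CPM in vehicle and 11764, 11628, 12165 and 15182 CPM in PAM libraries, with PAM 4 far above the rest. ATP6 was at 0.04 ± 0.10 and ATP8 at -0.28 ± 0.18. ATP8 ran from 135 to 211 CPM in vehicle and from 86.9 CPM in PAM 4 to 183 CPM in PAM 2, and its log2 fold change was -0.11 without PAM 4, -0.19 without vehicle 4 and -0.01 without PAM 3 and PAM 4.

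The rRNA-sized rows spread widely among PAM libraries, and their difference depended on which PAM libraries entered. With all libraries the log2 fold change was -0.07 ± 0.21 for the 12S row and -0.09 ± 0.17 for the 16S row (edgeR, Benjamini-Hochberg adjusted p = 0.845 and 0.787). Without PAM 3 and PAM 4, the libraries with the length trend, the values were -0.59 (adjusted p = 1.56e-06, range over alternatives 1.56e-06 to 0.992) and -0.50 (adjusted p = 1.80e-05, range 1.80e-05 to 0.961). Without PAM 4 alone the 12S row was at -0.38 (adjusted p = 0.0397) and the 16S row at -0.32 (adjusted p = 0.0636). With the length trend removed and all libraries kept they were at -0.25 and -0.15 and did not pass.

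Those settings also moved the messenger RNAs. Without PAM 3 and PAM 4, 6 of 18 rows fell (33.3%, against 12.5% lower over all genes in that fit, which called more genes than the fit with all libraries): the 12S and 16S rows, ND6 (-0.38), ND2 (-0.29), COX1 (-0.27) and CYTB (-0.25), while ND5 did not pass (-0.30, adjusted p = 0.0628, edgeR with Benjamini-Hochberg adjustment). With the length trend removed 4 of 18 fell (22.2%, against 9.66% lower over all genes): ND6 (-0.44), ND5 (-0.39), ND2 (-0.36) and CYTB (-0.35). ND2, ND5, ND6, COX1, CYTB, ND4, ND4L and ATP8 had a negative log2 fold change in all 21 alternatives, and COX3 in 20 of them. The alternatives refit the same libraries and are not independent. Without vehicle 4 no row passed. ND2 was then at -0.14, ND5 at -0.21, ND6 at -0.19, COX1 and CYTB at -0.15, ND4 at -0.08, ND4L at -0.05 and ATP8 at -0.19.

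**Figure D3:**
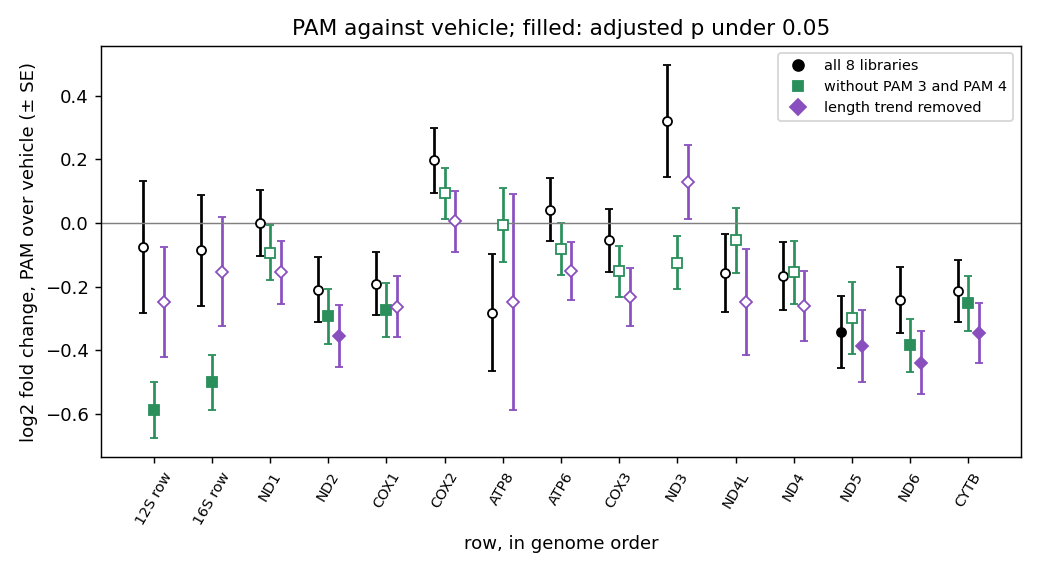
Log2 fold change of PAM over vehicle, with its SE, for the 15 abundant mitochondrial rows in genome order. Black circles use all 8 libraries, green squares leave out PAM 3 and PAM 4, and purple diamonds remove the length trend; filled symbols passed at an adjusted p under 0.05. ND5 is the only filled black symbol, and the green symbols of the 12S and 16S rows lie lowest, at -0.59 and -0.50.

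The balance between the messenger RNAs was compared as shares of the summed counts of the 13 protein-coding genes, which do not depend on library scaling. The shares sum to a fixed whole, so a smaller share of a gene means larger shares of others. A larger share need not be a higher level. COX2, ND1 and ATP6 took a larger share in every PAM library than in any vehicle library, and COX1 and ND2 a smaller one. With counts divided by gene length this held for COX2, ATP6, COX1 and ND2, while ND1 overlapped between groups. Such division does not remove the length trend of a library. COX2, ATP6 and ND1 (684, 681 and 955 bases) are shorter than COX1 and ND2 (1545 and 1039 bases). Other short genes went both ways, each with overlap of the groups. ND6, ATP8 and ND4L (519, 204 and 297 bases) had lower mean shares in PAM libraries, and ND3 and COX3 (348 and 784 bases) higher ones. With the trend removed, edgeR log2 fold changes were 0.01 for COX2, -0.15 for ATP6, -0.16 for ND1, -0.26 for COX1 and -0.36 for ND2. The part of the trend in the shares was not tested. COX2 held 9.79%, 8.47%, 9.5% and 8.88% under vehicle and 10.9%, 11.3%, 10.7% and 11.9% under PAM. COX1 held 29.4%, 31.7%, 30.3% and 29.8% against 29.2%, 27.8%, 28.1% and 28.4%. The groups did not overlap for either gene, with mean differences of 2.02 percentage points for COX2 and -1.93 for COX1.

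ATP6 went from 11.4 ± 0.33% to 12.5 ± 0.34%, ND1 from 6.69 ± 0.25% to 7.17 ± 0.07% and ND2 from 9.31 ± 0.3% to 8.63 ± 0.29% (mean ± SD, n = 4 per group). The differences in share came without a called change in level. The edgeR log2 fold changes were 0.20 for COX2, 0.04 for ATP6, 0.00 for ND1, -0.19 for COX1 and -0.21 for ND2. For these 5 genes the exact permutation p was 0.0286, the smallest that 4 against 4 allows, and 0.1 after Benjamini-Hochberg adjustment over the 21 shares and ratios compared. None of the 21 passed an adjusted p under 0.05, and the groups did not overlap for 6 of them, the other being complex V, the sum of ATP6 and ATP8 (11.6 ± 0.33% and 12.7 ± 0.31%). Complex V is almost all ATP6 and so repeats that gene, and the shares are not independent of each other. In CPM, a different measure, the groups did not overlap for 22.3% of all tested genes. The differences persisted without PAM 3 and PAM 4, at 1.92 points for COX2 and -1.81 for COX1. With edgeR scaled to the mitochondrial protein-coding counts, COX2 alone among the 18 tested rows passed (log2 fold change 0.29, Benjamini-Hochberg adjusted p = 0.0329, range over alternatives 0.0329 to 0.98); this scaling shifts the median of all genes by 0.10 and was chosen after seeing the data.

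The other single-gene shares of counts overlapped between groups. Per kilobase the ND6 share did not overlap, at 4.01 ± 0.09% and 3.52 ± 0.2% (exact permutation p = 0.0286, n = 4 per group, adjusted p = 0.0857 over 21 measures). The ratio of ND6 to the other 12 genes did not overlap either, which follows from the share and is no separate result. ND5 held 3.26 ± 0.36% and 2.79 ± 0.36% of the protein-coding counts, CYTB 12.9 ± 0.44% and 11.9 ± 0.67%, and ND6 2.18 ± 0.06% and 1.96 ± 0.12% (exact permutation p = 0.114, 0.0571 and 0.0571, n = 4 per group, and 0.24, 0.133 and 0.133 after Benjamini-Hochberg adjustment over the 21). The summed complex I genes held 23.2 ± 0.82% and 22.7 ± 0.57% and complex IV 52.3 ± 0.95% and 52.7 ± 1.02%. The rRNA-sized rows held 8.54 ± 0.96% and 8.43 ± 2.09% of mitochondrial counts, running from 6.45% in PAM 1 to 11.1% in PAM 4. COX1 and COX2 lie on the same precursor, with the ends of their rows close together, and their ratio per kilobase, chosen for its values and not tested, was 1.47 ± 0.14 in vehicle and 1.13 ± 0.06 in PAM libraries.

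**Figure D4:**
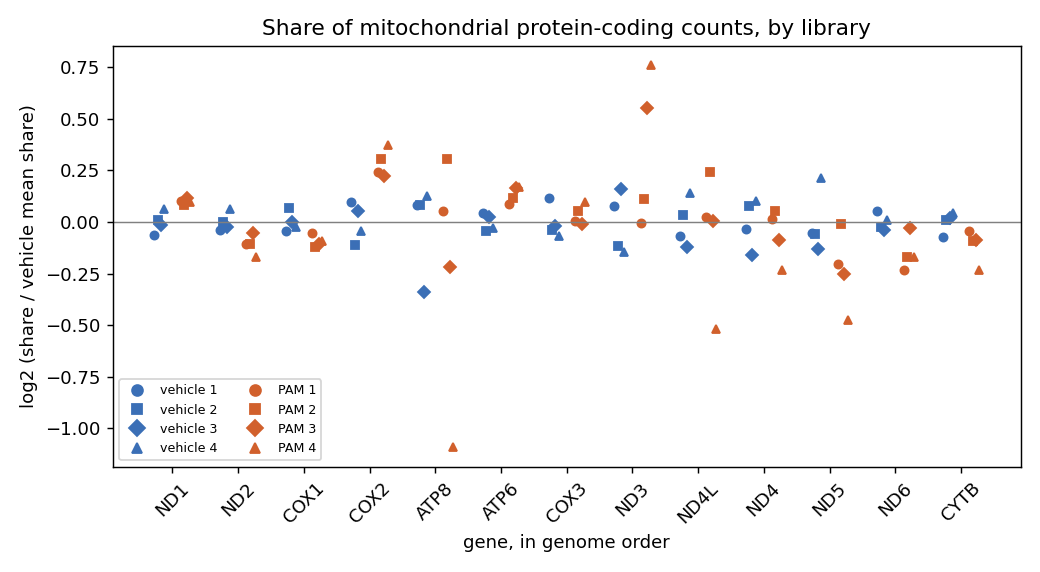
Share of each gene in the mitochondrial protein-coding counts, as log2 of the library's share over the vehicle mean, for 13 genes in genome order; points are libraries. COX2, ND1 and ATP6 lie higher in all PAM libraries than in any vehicle library, COX1 and ND2 lower, and ATP8 in PAM 4 is the lowest point.

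Libraries of a group varied for the median mitochondrial messenger RNA about as much as for nuclear genes of like abundance. The median within-group SD of log2 CPM was 0.14 over the 13 protein-coding genes, against 0.15 over 1117 nuclear genes at least as abundant as ATP8 and 0.28 over all tested genes. Single genes spread more: in PAM libraries ND3 ran from 1207 to 2425 CPM and ATP8 from 86.9 to 183 CPM.

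The nuclear genes that make and use the mitochondrial genome's RNA were mostly without a called change. Of 211 tested genes on 10 lists, 6 (2.84%) passed and all 6 rose, against 9.00% of all tested genes higher and 9.89% lower; 36 (17.1%) had an unadjusted p under 0.05 by edgeR, against 31.9% of all tested genes. Their median log2 fold change was 0.15, against 0.02 over all tested genes.

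None of 19 tested genes for transcription and replication of mitochondrial DNA passed (median 0.08). Polrmt, the mitochondrial RNA polymerase gene, had 36.9, 31.7, 37.3 and 35.3 CPM in vehicle and 38.7, 20.3, 36.1 and 23.1 CPM in PAM libraries. Tfam, which packages the genome and starts transcription, was at 23.6 ± 3.42 and 28.6 ± 2.7 CPM. Tefm, the transcription elongation factor gene, had a log2 fold change of -1.06 ± 0.44 (edgeR, Benjamini-Hochberg adjusted p = 0.105). PAM libraries held 2.77 to 4.69 CPM of Tefm and vehicle libraries 3.56 to 13.4 CPM.

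In RNA processing and turnover 1 of 28 genes rose (median 0.14): Prorp, the nuclease subunit of the mitochondrial RNase P that cuts tRNA 5′ ends out of the precursors. Prorp had 8.54, 14, 8.77 and 11.3 CPM in vehicle and 18.7, 20.3, 21.1 and 13.3 CPM in PAM libraries, so that PAM 4 overlapped vehicle 2. Its log2 fold change was 0.78 ± 0.25 (edgeR, Benjamini-Hochberg adjusted p = 0.037). Lrpprc, whose complex with Slirp stabilizes mitochondrial messenger RNAs, was at 96.5 ± 10.1 and 105 ± 15.2 CPM, and Slirp at 7.72 ± 2.14 and 10.7 ± 3.45 CPM. Rexo2, an exonuclease that clears short RNA, did not pass (0.36 ± 0.13, adjusted p = 0.0569 by edgeR with Benjamini-Hochberg adjustment).

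Of 13 translation factor genes none passed (median -0.04). Gfm1, an elongation factor gene, was at 37.2 ± 2.19 and 48.5 ± 4.28 CPM and Mrrf, for ribosome recycling, at 24.3 ± 3.33 and 17.2 ± 2.48 CPM, each without overlap of the groups. Of 71 mitochondrial ribosomal protein genes 3 rose and 0 fell (median 0.18): Mrps6 (0.46 ± 0.13), Mrps17 (0.55 ± 0.17) and Mrpl58 (0.52 ± 0.18). Mrps6 went from 68 ± 8.88 to 93.5 ± 7.9 CPM. None of 8 tested biogenesis regulators passed (median 0.06), and 4 of them had a positive log2 fold change. Nrf1 was at 17.2 ± 3.82 and 24.2 ± 2.9 CPM and Gabpa at 10 ± 3.3 and 15.3 ± 3.67 CPM, each with overlap of the groups. The coactivator gene Ppargc1a was at 6.74 ± 2.13 and 4.56 ± 1.85 CPM.

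Among the nuclear subunits that assemble with the mitochondrially encoded ones, 2 of 34 for complex I rose, Ndufa5 (0.67 ± 0.16) and Ndufb4 (0.40 ± 0.12). None of 9 passed for complex III, of 11 for complex IV or of 14 for complex V. The medians were 0.12, 0.25, 0.22 and 0.20, and 56 of the 68 genes had a positive log2 fold change. Complex II, which has no mitochondrially encoded subunit, had a median of 0.03 over 4 genes, none past the test. Ndufa5 had 71.3, 82.6, 98 and 79.3 CPM in vehicle and 103, 114, 125 and 186 CPM in PAM libraries, without overlap.

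The summed levels of these subunits split the PAM group. The subunits of complexes I, III, IV and V together reached 15625, 15794, 17058 and 15672 CPM under vehicle and 15401, 14176, 19623 and 22737 CPM under PAM. PAM 1 and PAM 2 lay below every vehicle library and PAM 3 and PAM 4 above. Without PAM 3 and PAM 4 the medians of complexes I, III, IV and V were -0.15, -0.10, -0.12 and -0.04, and of 213 listed nuclear genes tested 11 fell and 5 rose (5.16% and 2.35%, against 12.5% lower and 11.2% higher over all genes in that fit). Those that rose were Ndufa5, Prorp, Mrps6, Gfm1 and Yy1, and none of the 11 that fell was called with all libraries. Among the 11, and picked after their values were seen, were Ndufa9 (-0.35) and Ndufa8 (-0.32) of complex I, Atp5mc1 (-0.42) of complex V and Tefm (-1.41). Without PAM 2, 28 of 212 genes rose (13.2%, against 9.73% higher over all genes). With the length trend removed 2 of 211 rose, Ndufa5 and Prorp (0.948%, against 8.72% higher over all genes).

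**Figure D5:**
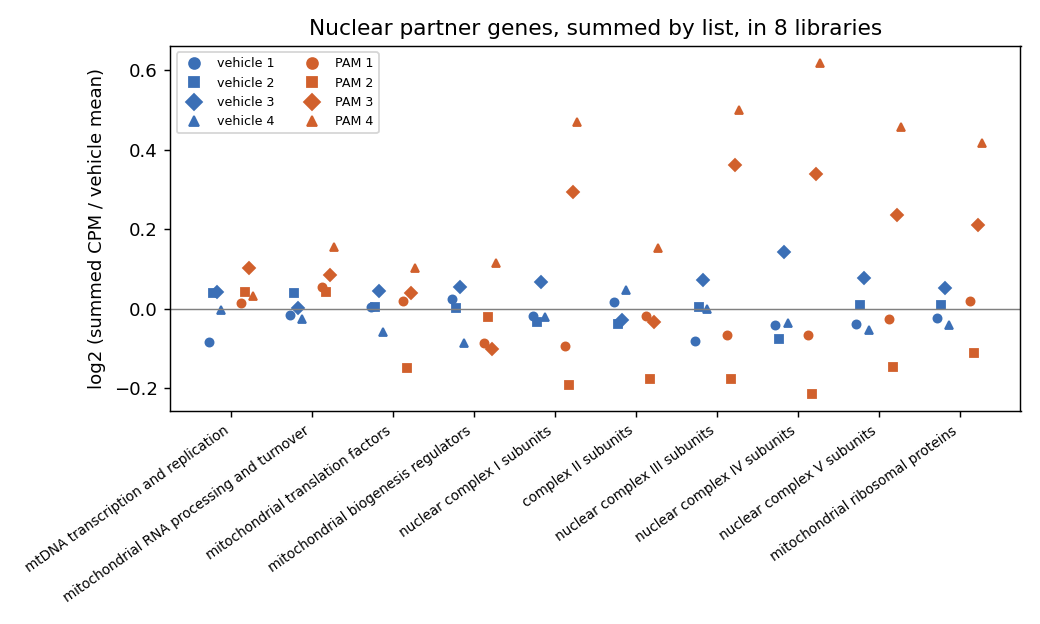
Summed CPM of each list of nuclear partner genes in each library, as log2 over the vehicle mean; points are libraries. For the subunits of complexes I, III, IV and V and the mitochondrial ribosomal proteins, PAM 3 and PAM 4 lie above all vehicle libraries and PAM 2 below them.

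The authors' deposited table of their own comparison also holds the 13 protein-coding genes. In the authors' deposited table ND5 has a log2 fold change of -0.35 with an adjusted p of 0.0285 and is the only one of the 13 under 0.05. The next in the authors' deposited table are ND6 at -0.24 (adjusted p of 0.101) and CYTB at -0.22 (adjusted p of 0.115).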

How the data were processed

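Whole-number gene counts were deposited by the authors as 1 table per library, with Ensembl identifiers, positions and a length for each row, per the file headers. Per the submitters' processing notes, the tools were STAR, featureCounts, DESeq and DESeq2 (no versions) and the build was Rnor_6.0. The sources used here do not give strandedness, read length, annotation release or how multi-mapped reads were handled. The authors' deposited comparison gives group means (signal), log2 fold changes and p-values, per the file headers, and supplied the gene symbols. RNA was polyadenylated RNA, per the labels.

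Members were all MT rows; levels use counts divided by TMM-scaled library size (CPM) and, between genes, by length. Genes passing filterByExpr (11740) were tested in R 4.3.3 with edgeR 4.0.16 (quasi-likelihood, TMM, group as the only term, robust dispersion, Benjamini-Hochberg over all genes, adjusted p under 0.05); SE is the absolute log2 fold change over the root of F, and rose, fell and called refer to this test. Shares and ratios were compared by exact two-sided permutation over libraries. The members, lists and tests were chosen with earlier results of these data known. Named were all MT rows with at least 10 counts, up to 4 genes per nuclear list by smallest p, and Polrmt, Tfam, Lrpprc, Slirp and Ppargc1a; nuclear genes named from fits without some libraries were chosen after their values were seen. Of 231 list entries 217 matched a row, through the authors' symbols or a RefSeq table of GRCr8 used for names.

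Alternatives were DESeq2 1.42.0, limma-voom (limma 3.58.1), RLE, upper-quartile or no scaling, scaling from nuclear genes, other filters (none, or a mean of 1 CPM), replicate numbers as blocks, testing for changes beyond 1.2-fold, removal of each library's length trend (loess, span 0.5), each library left out, and PAM 3 and PAM 4 left out. Scaling to mitochondrial protein-coding counts was added after seeing the data. Fits were tested on simulated data. No 2 replicates agreed within sampling noise (chi-square per degree of freedom 2.85 to 15.9), so each library was counted once.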

Additional observations from a re-analysis of the deposited data

Results flagged for a closer look

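In 4 of the 80 groups of 4 libraries checked (the CPM of each tested row, the mitochondrial share, and the shares and ratios, in each group), 1 library stood apart by the test for a single outlying value, with a gap to its nearest neighbour, as a share of the group's range, above Dixon's critical value for 4 samples; chance flags about 1 in 20 groups, and these groups are not independent. COX2 in PAM 4 was at 15182 CPM, against 11628 to 12165 CPM in the other PAM libraries. ND5 in vehicle 4 was at 5054 CPM, against 3523 to 3744 CPM in the other vehicle libraries. ND6 in vehicle 4 was at 2923 CPM, against 2505 to 2559 CPM in the others. The ATP8 share of the protein-coding counts in vehicle 3 was 0.114%, against 0.153% to 0.158% in the others.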

How the results depend on the processing

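The number of mitochondrial rows that fell was 1 with all libraries and 0 with upper-quartile scaling, with library totals only, when scaled to mitochondrial protein-coding counts, with the test against a 1.2-fold change and with the replicate number as a block (ND5 adjusted p = 0.052, edgeR with Benjamini-Hochberg adjustment). It was 4 with the length trend removed, 6 without PAM 3 and PAM 4, and 0 to 2 without 1 library. The number that rose was 0 with all libraries and 1 with no low-count filter (ND3) or when scaled to mitochondrial protein-coding counts (COX2). The difference in mitochondrial share, -0.69 points, was -1.34 (exact permutation p = 0.0286) where 2 choices changed together: protein-coding rows only, and counts per kilobase. With protein-coding rows only and plain counts it was -0.63 (exact permutation p = 0.171). Without 1 library the difference for all mitochondrial rows was -1.07 to -0.36. Nuclear partner genes that rose numbered 6, with 2 when the length trend was removed and 1 to 28 without 1 library; without PAM 3 and PAM 4, 11 fell, against 0, and 5 rose. The ND5 log2 fold change was -0.40 to -0.21 over the 21 alternatives. Same-numbered libraries share a number alone: deviations from group means correlated at -0.0595 to 0.0676 within the 4 pairs, and 2 of 8 libraries correlated best with their own number. Low counts limit what can be said of the tRNA-sized rows. The 13 protein-coding genes rest on 241 or more counts per library.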
